A study of Mus musculus with 28 samples.

Results

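miR-146a-5p and miR-146b-5p are the main strands of a pair of mouse miRNAs that were read in every one of 28 small-RNA libraries of the left ventricle. They were taken by name, as 2 of the 1485 mature miRNA names counted in the series, and each was listed under a single hairpin. Both passed the filter on low counts in each follow-up. The tissue was ventricular wall of the remote zone, which lies away from the infarct, and all mice were of the outbred stock Hsd:ICR(CD-1).

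The groups were formed by operation, operation day and follow-up. Pups of postnatal day 7 or day 1 had a myocardial infarction, through a tie around the left anterior descending artery (MI P7 and MI P1), or a sham operation (sham P7 and sham P1). Tissue was taken 3 or 21 days later. At 3 days, MI P7 and sham P7 hearts were 10 days old and MI P1 and sham P1 hearts were 4 days old, with 4 libraries a group. At 21 days, MI P7 and sham P7 hearts were 28 days old and MI P1 and sham P1 hearts were 22 days old, with 3 libraries a group. The labels do not say outright that each library is a different mouse, so p-values measure the spread between these libraries. The 3-day and 21-day libraries were made with different kits, and levels are not compared between them.

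miR-146a and miR-146b are transcribed from separate genes but share the seed, the stretch of a miRNA that pairs with its targets. Toll-like receptors and NF-kB switch on miR-146a, and the pair is known to lower the adaptor proteins TRAF6 and IRAK1, which carry the signal of those same receptors, so that the miRNAs act as a brake on the inflammation that induces them. In human monocytes miR-146b is also known to be induced by the anti-inflammatory cytokine IL-10. An infarct draws neutrophils and macrophages into the heart, and the mouse heart is known to lose its ability to regenerate muscle within days of birth, between the operation days used here.

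The sequences are shown because the pair can be told apart only near the 3′ end. They are given 5′ to 3′ from RefSeq's table for build GRCm38.p6, with the seed (bases 2 to 8) in capitals, first the main strands that the results turn on and then the strands from the other arm of each hairpin.
mmu-miR-146a-5p: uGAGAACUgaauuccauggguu
mmu-miR-146b-5p: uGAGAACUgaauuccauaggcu
mmu-miR-146a-3p: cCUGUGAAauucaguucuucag
mmu-miR-146b-3p: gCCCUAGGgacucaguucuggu

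The main strands were identical over their leading 17 bases and differed at 2 of 22 positions, G18A and U21C, with positions counted from 1 at the 5′ end and the miR-146a-5p base given first. The seed GAGAACU was found in 2 of the 1679 mature names of the RefSeq table, which were these members. The 3p strands, set side by side from base 1, matched at 4 positions, so the 3p counts separate the genes where the 5p counts rest on 2 bases. A trimmed or mismatched read may have been counted under either 5p name, which was not tested.

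The genes lie apart. miR-146a-5p was placed at chr11:43374435-43374456 on the minus strand, in the hairpin gene Mir146, between annotated genes: the nearest, the long non-coding RNA gene Gm12148, lay 11021 bases away on the other strand, and the nearest protein-coding gene was Pttg1 at 45789 bases. miR-146b-5p was placed at chr19:46342790-46342811 on the plus strand, in Mir146b, inside an intron of the protein-coding gene Mfsd13a on the same strand. The nearest other gene to Mir146b was Cuedc2 at 4060 bases (GENCODE M21 annotation).

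Deposited counts ranged from 1.29 to 13.0 M per library at 3 days and from 18.2 to 26.9 M at 21 days. Levels are given as CPM, counts per M (1e6) counts after TMM scaling, and cardiomyocyte miRNAs (miR-1a-3p, miR-133a-3p, miR-208a-3p, miR-208b-3p and miR-499-5p) together took 88820 to 324311 CPM at 3 days and 55970 to 157386 CPM at 21 days, with 0 of the 5 at 0 in any group. At 3 days the sham P1 libraries did not form a single group. Replicates 1 and 2, whose titles carry the code 1078, had 6.25 and 9.26 M deposited counts, and replicates 3 and 4, with the code 1103, had 1.56 and 2.65 M. The code 1078 libraries stood with MI P1 rather than with the rest: these 6 libraries had 715 to 1432 CPM of miR-146a-5p, and the other 10 libraries of that follow-up had 106.1 to 445 CPM. What the code stands for is not given in the sources used here. Fitted changes of the members that rest on sham P1 at 3 days are therefore given also without the code 1103 or the code 1078 libraries. The number of miRNAs called by edgeR moved with the code left out. Without the code 1103 libraries 483 miRNAs were tested, and 19.3% were called after MI at P7, 0% after MI at P1, 0.207% in the difference of the MI effects and 72.9% between the sham groups. Without the code 1078 libraries 459 were tested, and 19.2%, 75.8%, 65.6% and 15.9% were called in the same order. Limma-voom that treats libraries of 1 title code as a block (estimated correlation of 0.642) called 0 miRNAs in each of these 4 comparisons. No title code was shared between groups, and all sham P7 libraries at 3 days carried the code 1075. At 21 days each group carried a single code of its own, so code and group cannot be told apart there.

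At 3 days, MI at P7 went with more miR-146b-5p and not with a detected change in miR-146a-5p. miR-146b-5p had 71.6, 103, 109 and 108 CPM in MI P7, against 9.32, 8.81, 18.7 and 19.9 CPM in sham P7. The raw counts behind these were 62, 121, 149 and 127 in MI P7 and 11, 7, 17 and 34 in sham P7. Every MI P7 library lay above every sham P7 library, and 14.6% of the 446 miRNAs tested were higher in this way in that comparison. In tissue libraries, more cells of a type and more RNA per cell cannot be told apart.

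The fitted difference for miR-146b-5p was 6.85-fold, a log2 fold change of 2.78 ± 0.70 (SE) with an adjusted p of 0.0316 by edgeR's quasi-likelihood test. It ranked 7 of 446 by log2 fold change, in a comparison where edgeR called 5.61% of miRNAs, 5.16% as higher and 0.448% as lower. The median log2 fold change of all tested miRNAs was -0.01. The sham P1 libraries enter this comparison only through the shared spread and scaling: it was 2.74 (adjusted p of 5.15e-06 by edgeR) without those of code 1103 and 2.73 (adjusted p of 7.34e-06) without those of code 1078. With title codes as blocks it was 2.59 with an adjusted p of 0.996 by limma-voom, so the call was lost.

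The call for miR-146b-5p after MI at P7 depended on single libraries, though its size did not. Leaving out 1 library at a time gave log2 fold changes of 2.59 to 2.99. The adjusted p by edgeR was 0.054 without MI P7 replicate 2, 0.0589 without MI P7 replicate 4, 0.0796, 0.114, 0.065 and 0.0538 without sham P7 replicates 1 to 4, and 0.0523 without MI P1 replicate 1. Counts in sham P7 were low: replicate 2 had 7 counts, or 6.50 per M before TMM scaling, with a 95% exact Clopper-Pearson interval of 2.62 to 13.4 that covers counting error only.

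miR-146a-5p had 265, 284, 338 and 224 CPM in MI P7, against 325, 247, 315 and 445 CPM in sham P7. The groups overlapped. The log2 fold change was -0.26 ± 0.60 (SE) with an adjusted p of 0.894 by edgeR, and scaling by total counts turned the sign to 0.22.

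At 3 days, MI at P1 also went with more miR-146b-5p. miR-146b-5p had 310.2, 315, 277 and 425 CPM in MI P1, against 83.7 and 133 CPM in the code 1078 and 8.68 and 9.68 CPM in the code 1103 libraries of sham P1. Every MI P1 library lay above every sham P1 library of either code, which held for 6.73% of the tested miRNAs in this comparison. The fitted difference was 5.59-fold, a log2 fold change of 2.48 ± 0.67 (SE) with an adjusted p of 0.0235 by edgeR. It ranked 4 of 446, and edgeR called 18.4% of miRNAs, 1.35% as higher and 17% as lower.

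The size of that difference depended on which sham P1 libraries it was set against. Without the code 1103 libraries the log2 fold change of miR-146b-5p was 1.55 with an adjusted p of 0.0695 by edgeR, and without the code 1078 libraries it was 4.95 with an adjusted p of 8.38e-08. With title codes as blocks it was 3.16 with an adjusted p of 0.236 by limma-voom. Leaving out single libraries gave 2.00 to 3.21. The adjusted p was above 0.05 without sham P1 replicate 3 (0.052) or 4 (0.063) and without MI P1 replicate 1 (0.0724), 2 (0.106) or 4 (0.0563), by edgeR.

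miR-146a-5p had 877, 715, 875 and 968 CPM in MI P1, against 1198 and 1432 CPM in the code 1078 and 106.1 and 160.2 CPM in the code 1103 libraries of sham P1. MI P1 lay between the codes, below the first and above the second. The log2 fold change was 0.24 ± 0.59 (SE) with an adjusted p of 0.822 by edgeR. It was -0.69 (adjusted p of 0.434) without the code 1103 and 2.47 (adjusted p of 5.01e-06) without the code 1078 libraries, so its direction rests on the choice of sham P1 libraries.

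**Figure D1:**
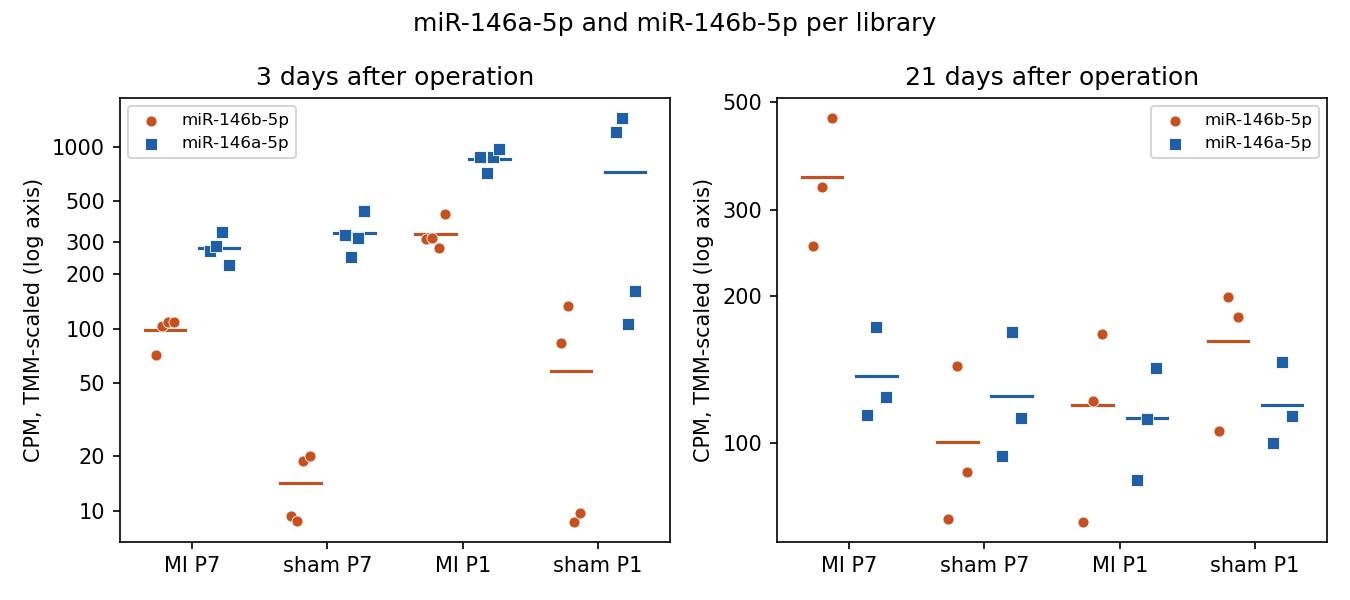
CPM of miR-146b-5p (circles) and miR-146a-5p (squares) in each library, on a log axis, by group at 3 days (left) and 21 days (right); bars are group means. At 3 days miR-146b-5p was 71.6 to 109 CPM in MI P7 against 8.81 to 19.9 CPM in sham P7, and the sham P1 libraries fell into a high and a low pair for both miRNAs.

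In the fit of all libraries the effect of MI was not shown to differ between operation days at 3 days. The difference of the MI effects (P7 minus P1) was 0.29 ± 0.91 (SE) for miR-146b-5p and -0.51 ± 0.84 (SE) for miR-146a-5p on the log2 scale, with adjusted p of 0.90 and 0.807 by edgeR. edgeR called 0% of the 446 miRNAs in this comparison. 71 had an unadjusted p under 0.05, DESeq2 called 6 and limma-voom called 0. Without the code 1103 libraries the difference was 1.20 (adjusted p of 0.341) for miR-146b-5p and 0.41 (adjusted p of 0.729) for miR-146a-5p, and 1 miRNA was called. Without the code 1078 libraries both passed with the opposite sign, at -2.22 (adjusted p of 0.00103) and -2.76 (adjusted p of 4.12e-05) by edgeR, in a comparison where 301 miRNAs were then called, 181 as higher and 120 as lower.

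Between the sham groups of the 3-day follow-up, miR-146b-5p was lower in the older hearts in the fit of all libraries. The log2 fold change of sham P7 over sham P1 was -2.05 ± 0.68 (SE) with an adjusted p of 0.0412 for miR-146b-5p, and -1.12 ± 0.60 (SE) with an adjusted p of 0.177 for miR-146a-5p, by edgeR. In this comparison 22% of miRNAs were called, 3.81% as higher and 18.2% as lower, and the median log2 fold change of all miRNAs was -0.53. The sham P7 libraries overlapped the code 1103 libraries of sham P1 in miR-146b-5p and lay above them in miR-146a-5p.

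That difference by age followed the sham P1 codes. Set against the code 1078 libraries alone, the log2 fold changes were -2.81 (adjusted p of 1.56e-06) for miR-146b-5p and -1.88 (adjusted p of 1.04e-05) for miR-146a-5p by edgeR, with 352 miRNAs called. Set against the code 1103 libraries alone they had the opposite sign, at 0.64 (adjusted p of 0.331) and 1.32 (adjusted p of 0.008), with 73 miRNAs called. With title codes as blocks miR-146b-5p was at -1.20 with an adjusted p of 0.767 by limma-voom. In the fit of all libraries, leaving out any of 13 single libraries took the adjusted p of miR-146b-5p above 0.05, with log2 fold changes of -2.45 to -1.32. The exceptions were sham P1 replicates 3 and 4 and sham P7 replicate 4. For miR-146a-5p, leaving out sham P1 replicate 3 or 4 gave -1.37 and -1.50 with adjusted p of 0.0287 and 0.0474 by edgeR.

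Setting miR-146b-5p against miR-146a-5p in the same library needs no scaling between libraries, and on this measure the sham P1 codes did not separate. Per 100 counts of miR-146a-5p there were 27.0, 36.4, 32.3 and 48.3 counts of miR-146b-5p in MI P7, against 2.86, 3.57, 5.92 and 4.47 in sham P7. There were 35.3, 44.0, 31.7 and 43.9 in MI P1, against 6.99 and 9.25 in the code 1078 and 8.18 and 6.04 in the code 1103 libraries of sham P1. The groups with MI overlapped each other, every library with MI lay above every sham library, and the sham groups did not overlap each other.

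The ratio was 8.37-fold higher in MI P7 than in sham P7 and 5.01-fold higher in MI P1 than in sham P1, from the difference of the mean log2 ratios (3.07 and 2.32, with 0.5 added to each count). It was lower in sham P7 than in sham P1 by a log2 difference of -0.86. Each of these 3 comparisons had a two-sided exact permutation p of 0.0286, the smallest that 4 against 4 libraries allow, and 0.0381 after Benjamini-Hochberg adjustment over 4 comparisons. Between the sham groups this p rests on the narrow gap given above, which lies within counting error. The difference of the MI effects in the log2 ratio was 0.74 with an exact permutation p of 0.621 over 4900 relabelings. MI and sham labels were swapped within each operation day, so this tests for no MI effect on either day. It cannot decide whether the effects differ between days.

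Against the code 1078 libraries alone the ratio in MI P1 was higher by 2.25 on the log2 scale, and in sham P7 it was lower by 0.93 (log2 difference of -0.93). With 2 libraries on the sham P1 side these exact permutation tests could not pass the threshold (p of 0.133 for both). Leaving out single libraries kept the log2 differences within 2.90 to 3.24 after MI at P7, 2.22 to 2.42 after MI at P1 and -1.04 to -0.70 between the sham groups. With a library of the compared groups left out, the smallest exact p the test allows is 0.0571.

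**Figure D2:**
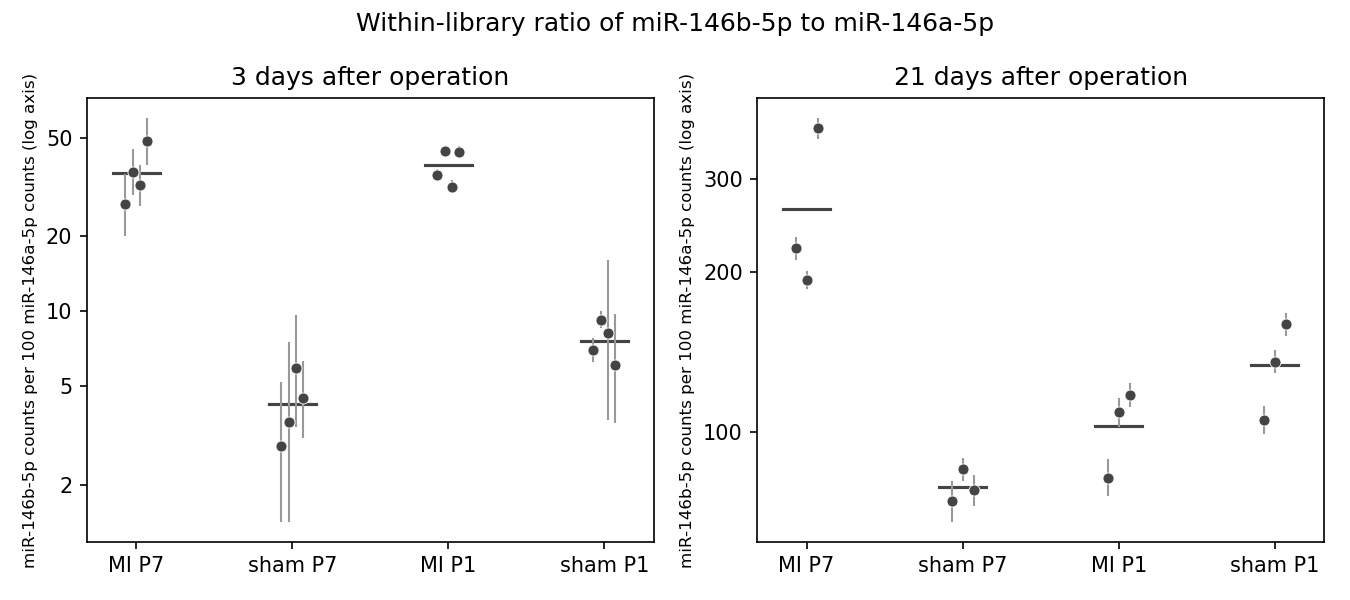
Counts of miR-146b-5p per 100 counts of miR-146a-5p in each library, on a log axis, by group at 3 days (left) and 21 days (right). Thin lines are 95% exact Clopper-Pearson intervals, which cover counting error only, and bars are group means. At 3 days libraries with MI lay at 27.0 to 48.3 and sham libraries at 2.86 to 9.25; at 21 days MI P7 lay at 194 to 373, above the other groups.

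At 21 days miR-146b-5p was higher after MI at P7 and did not pass the test after MI at P1. miR-146b-5p had 253, 334 and 463 CPM in MI P7, against 69.7, 144 and 87.3 CPM in sham P7. The lowest MI P7 library lay above every library of the other groups at that follow-up; 16.6% of the 598 tested miRNAs were higher without overlap in MI P7 than in sham P7. The fitted difference was 3.49-fold, a log2 fold change of 1.80 ± 0.37 (SE) with an adjusted p of 0.0081 by edgeR. It ranked 17 of 598, and edgeR called 22.1% of miRNAs, 13.2% as higher and 8.86% as lower.

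That call held when any of the 12 libraries was left out, with log2 fold changes of 1.60 to 2.18 and adjusted p of 0.00375 to 0.0301 by edgeR. Each 21-day group carried its own title code, which leaving out single libraries cannot separate from the operation. miR-146a-5p had 114, 173 and 124 CPM in MI P7, against 94.0, 169 and 112 CPM in sham P7. These groups overlapped, with a log2 fold change of 0.13 ± 0.27 (SE) and an adjusted p of 0.740 by edgeR. Its sign turned to -0.001 without sham P7 replicate 1 and to -0.06 without MI P7 replicate 2.

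After MI at P1, miR-146b-5p had 68.9, 122 and 168 CPM in MI P1, against 105.6, 199 and 181 CPM in sham P1 at 21 days. The groups overlapped, with a log2 fold change of -0.44 ± 0.36 (SE) and an adjusted p of 0.817 by edgeR, in a comparison where 0.502% of miRNAs were called. miR-146a-5p had 83.8, 112 and 142 CPM in MI P1, against 100.0, 146.3 and 113 CPM in sham P1. These overlapped too, with a log2 fold change of -0.09 ± 0.27 (SE) and an adjusted p of 0.989 by edgeR; it was 0.09 without sham P1 replicate 2 or without MI P1 replicate 1.

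The effect of MI on miR-146b-5p differed between operation days at 21 days. The difference of the MI effects (P7 minus P1) was 2.24 ± 0.51 (SE) on the log2 scale, with an adjusted p of 0.0178 by edgeR, and ranked 21 of 598 in a comparison where edgeR called 9.87% of miRNAs, 7.86% as higher and 2.01% as lower. Leaving out 1 library gave 1.98 to 2.60 with adjusted p of 0.00965 to 0.0481. With the sequencing lane as a factor the difference was 2.29 with an adjusted p of 0.0624 by edgeR, and 0 miRNAs were then called. For miR-146a-5p the difference was 0.22 ± 0.37 (SE) with an adjusted p of 0.740.

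Between the sham groups at 21 days neither miRNA passed the test. The log2 fold change of sham P7 over sham P1 was -0.69 ± 0.36 (SE) for miR-146b-5p and 0.06 ± 0.27 (SE) for miR-146a-5p, with adjusted p of 0.473 and 0.955 by edgeR. edgeR called 0% of the 598 miRNAs. 72 had an unadjusted p under 0.05, DESeq2 called 14 and limma-voom called 0. The miR-146a-5p value was -0.16 with total count scaling, -0.004 with a filter of 10 CPM, -0.04 without sham P1 replicate 1 and -0.21 without sham P7 replicate 2.

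**Figure D3:**
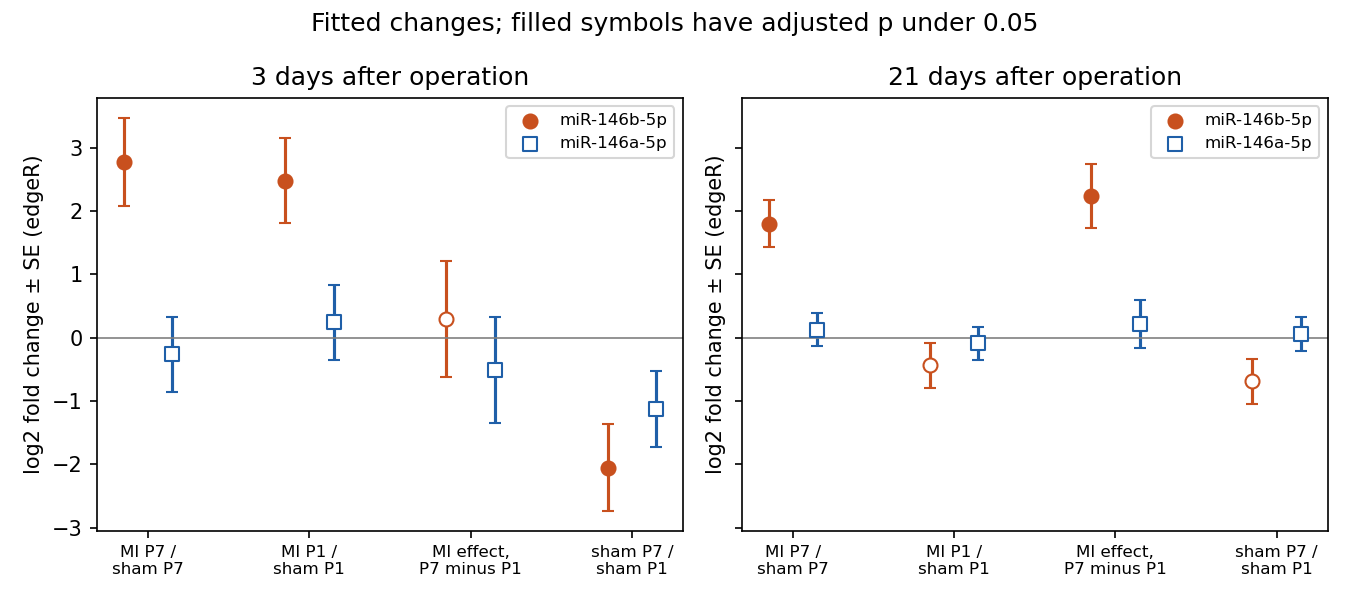
Log2 fold changes with SE from edgeR for miR-146b-5p (circles) and miR-146a-5p (squares) in each comparison at 3 days (left) and 21 days (right); filled symbols have an adjusted p under 0.05. miR-146b-5p was 2.78 and 2.48 after MI at P7 and P1 at 3 days and 1.80 and -0.44 at 21 days, while miR-146a-5p lay within 0.26 of 0 in these 4 comparisons.

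Within 21-day libraries there were 222, 194 and 373 counts of miR-146b-5p per 100 of miR-146a-5p in MI P7, against 74.2, 85.3 and 77.8 in sham P7. There were 82.2, 109 and 118 in MI P1, against 105.6, 136 and 159.6 in sham P1. MI P7 lay above all other libraries of the follow-up, and MI P1 overlapped sham P1.

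The ratio at 21 days was 3.19-fold higher in MI P7 than in sham P7, with an exact permutation p of 0.1, the smallest that 3 against 3 libraries allow. In MI P1 it was lower than in sham P1 by a log2 difference of -0.37 with an exact permutation p of 0.3. The difference of these effects was 2.05 on the log2 scale, with a two-sided exact permutation p of 0.015 over 400 relabelings and 0.06 after adjustment over 4 comparisons. Labels were again swapped within each operation day, so this tests for no MI effect on either day and not for equal effects. Among the libraries of lane 3 alone, the log2 difference between MI P7 and sham P7 was 1.82 with 2 libraries a group, too few for the test to pass.

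The order of the levels at 3 days put miR-146b-5p highest in MI P1 (332 ± 64.5 CPM), then MI P7 (98.1 ± 17.9 CPM), sham P1 (58.6 ± 60.5 CPM) and sham P7 (14.2 ± 5.92 CPM; SD, n = 4 each). MI P1 did not overlap MI P7, and the other neighbours in this order overlapped. miR-146a-5p was at 859 ± 105 CPM in MI P1, 724 ± 689 CPM in sham P1, 333 ± 82.4 CPM in sham P7 and 278 ± 47.3 CPM in MI P7 (SD, n = 4 each), with every neighbour overlapping. At 21 days miR-146b-5p was at 350.2 ± 105.93 CPM in MI P7, which did not overlap its neighbour, then 162 ± 49.5 CPM in sham P1, 119 ± 49.3 CPM in MI P1 and, lowest, 100.4 ± 38.9 CPM in sham P7 (SD, n = 3 each). miR-146a-5p lay between 113 and 137 CPM in every group mean at 21 days.

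In rank among all 1485 names by mean CPM, miR-146a-5p stood at 73 to 121 over the groups at 3 days and at 130 to 137 at 21 days. miR-146b-5p stood at 168 in MI P7 and 292 in sham P7, and at 111 in MI P1 and 220 in sham P1, at 3 days. At 21 days miR-146b-5p ranked 100 in MI P7 and 147 in sham P7, and 134 in MI P1 and 120 in sham P1.

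The summed level of the pair, whose members share the seed, was described and not tested. At 3 days it was 376 ± 53.6 CPM in MI P7, against 347 ± 86.8 CPM in sham P7, and 1191 ± 151 CPM in MI P1, against 783 ± 749 CPM in sham P1 (SD, n = 4 each), and in both pairs the groups overlapped. At 21 days it was 487 ± 111 CPM in MI P7, against 225 ± 78.0 CPM in sham P7, which did not overlap, and 232 ± 78.6 CPM in MI P1, against 282 ± 70.6 CPM in sham P1 (SD, n = 3 each).

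The other arm of the miR-146b hairpin was also read at 3 days, and it followed miR-146b-5p after MI at P7 but not throughout. miR-146b-3p had 8, 24, 24 and 15 counts in MI P7, against 2, 1, 1 and 2 in sham P7, at 3 days. Every MI P7 library was above every sham P7 library, as for 14.6% of the 446 tested miRNAs. The log2 fold change was 3.49 ± 0.69 (SE) with an adjusted p of 0.00662 by edgeR, which called 5.16% of all as higher there. The counts were 8, 17, 5 and 8 in MI P1, against 0, 2, 2 and 2 in sham P1, with a log2 fold change of 1.23 ± 0.71 (SE) and an adjusted p of 0.226. For that comparison it was 2.53 (adjusted p of 0.226) without the code 1103 and -0.18 (adjusted p of 0.881) without the code 1078 libraries, by edgeR.

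The difference of the MI effects on miR-146b-3p (P7 minus P1) was 2.26 ± 1.08 (SE) with an adjusted p of 0.296, and 0.95 without the code 1103 and 3.64 (adjusted p of 0.00479) without the code 1078 libraries, by edgeR. Sham P7 over sham P1 was 1.13 ± 0.85 (SE) with an adjusted p of 0.333, and 2.56 (adjusted p of 0.0215) without the code 1103 and -0.10 (adjusted p of 0.962) without the code 1078 libraries. Between the sham groups these signs were opposite to those of miR-146b-5p in each of these fits. Without the code 1078 libraries the signs were also opposite after MI at P1 and in the difference of the MI effects. The reason was not tested.

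miR-146b-3p was too low for the test at 21 days, with 1 to 9 counts a library, and miR-146a-3p was too low at both follow-ups, with 0 to 5 counts. The share of the 3p arm among miR-146b counts divided the 3-day libraries along the same line as the level of miR-146a-5p. It was 0 to 0.50% in MI P1 and the code 1078 libraries of sham P1, with 40 counts of miR-146b-3p and 9696 of miR-146b-5p in these 6 libraries together. In the other 10 libraries of that follow-up it was 5.56 to 18.2%, with 81 and 555 counts. MI P7 and sham P7 were on the same side of that line and overlapped, at 10.6 to 16.6% and 5.56 to 15.4%.

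miRNAs whose level followed a member most closely were found as those with the smallest SD of the log2 ratio to it over the libraries of a follow-up, among tested miRNAs with a mean of at least 10 CPM. At 3 days miR-146b-5p was followed most closely by miR-223-3p (SD 0.63) and miR-21a-5p (SD 0.63), then by miR-29b-3p, miR-7a-5p and miR-376b-3p (SD 0.84 to 0.94), over 16 libraries and 347 candidates with a median SD of 2.03. miR-223-3p is a miRNA of neutrophils and other myeloid cells, and miR-21a-5p is known to rise in injured hearts. miR-146a-5p was the 69th nearest to miR-146b-5p, with an SD of 1.46.

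These 5 had log2 fold changes of the same sign as miR-146b-5p after MI at P7 and after MI at P1. They were chosen for a constant ratio to it over the same libraries, so a shared sign follows largely from the choice. miR-223-3p was at 2.31 ± 0.84 (SE) after MI at P7 and 2.45 ± 0.84 (SE) after MI at P1, and miR-21a-5p at 2.25 ± 0.89 and 2.49 ± 0.90 (SE). Their adjusted p, by edgeR, lay above the threshold in these comparisons: 0.12 and 0.0503 for miR-223-3p, 0.157 and 0.0571 for miR-21a-5p. Both passed after MI at P7 with either code of sham P1 left out. In MI P1, miR-223-3p was at 1.42 without the code 1103 and 6.18 without the code 1078 libraries, and miR-21a-5p at 1.48 and 6.25. With the code 1103 libraries left out, 2 of these 5 were still among the 5 nearest. Libraries share the codes and depths described above, so the likeness is a description of them.

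miR-146a-5p at 3 days was followed by miR-15a-5p (SD 0.34), let-7g-5p, miR-29c-3p, miR-185-5p and let-7i-5p (SD 0.38 to 0.41), against a median of 1.36 over the candidates, and miR-146b-5p came 186th. None of these 5 passed the test in any of the 4 comparisons of that follow-up, by edgeR. As they were chosen for a constant ratio to miR-146a-5p, which did not pass either, this follows largely from the choice. At 21 days its nearest were miR-98-5p (SD 0.24), let-7c-5p, let-7b-5p, miR-379-3p and miR-411-3p (SD 0.25 to 0.28) among 282 candidates and 12 libraries, with a median of 0.48. A minimum mean of 50 CPM removes miR-379-3p (10.96 CPM) and miR-411-3p (11.6 CPM) by level alone, and the other 3 of these 5 then stay by construction. The same holds at 3 days for miR-29b-3p (42.4 CPM) and miR-376b-3p (28.3 CPM) among the 5 nearest to miR-146b-5p. This filter therefore does not test the likeness. The 5 nearest to miR-146a-5p at 21 days are members of the let-7 family, abundant miRNAs of differentiated tissue, or miRNAs of the imprinted Dlk1-Dio3 cluster.

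At 21 days miR-146b-5p was followed by miR-199a-3p and its near-copy miR-199b-3p, which may share reads (SD 0.44 for both), miR-152-3p (SD 0.45), miR-218-5p (SD 0.47) and miR-199b-5p (SD 0.49), against a median of 0.92. miR-199a is made with miR-214 by fibroblasts and other mesenchymal cells. All 5 were higher after MI at P7, with log2 fold changes of 1.22 to 1.66 and adjusted p of 0.00312 to 0.0124 by edgeR, and in the difference of the MI effects (1.28 to 1.97, adjusted p of 0.00923 to 0.0289). Of all tested miRNAs, edgeR called 13.2% and 7.86% as higher in these comparisons. The 5 were chosen for a constant ratio to miR-146b-5p over the same libraries. Sharing its rise follows largely from that choice, and these calls do not test the likeness. miR-146a-5p was the 48th nearest, with an SD of 0.71.

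The nearest miRNAs at 21 days include a marker of fibroblasts, and the marker lists were read beside the members. Of the 4 fibroblast-associated miRNAs (miR-199a-5p, miR-199a-3p, miR-214-3p and miR-214-5p), 4 were higher in MI P7 than in sham P7 at 21 days, with a median log2 fold change of 1.87 against 0.03 for all tested miRNAs. In the difference of the MI effects 4 of 4 were higher, and 0 of 4 with the lane as a factor. Of all tested miRNAs, edgeR called 13.2% as higher in MI P7 and 7.86% as higher in the difference. Their summed level was 10680 to 23036 CPM in MI P7 and 5123 to 6152 CPM in sham P7, and 5199 to 6850 CPM in MI P1 and 5956 to 9635 CPM in sham P1, with 0 of the 4 at 0 in any group. The 5 cardiomyocyte miRNAs summed to 55970 to 92571 CPM in MI P7 and 133851 to 157386 CPM in sham P7, and overlapped between MI P1 (121850 to 141537 CPM) and sham P1 (114143 to 141455 CPM). Of these 5, 1 was called at 21 days in MI P7, miR-133a-3p as lower (-1.01, adjusted p of 0.00844 by edgeR), which makes up most of the sum. The fibroblast list and miR-133a-3p moved with miR-146b-5p, and their part in that result was not tested.

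At 3 days the fibroblast list had 1 of 4 higher in MI P7 (miR-214-5p, 2.57 ± 0.56, adjusted p of 0.0113 by edgeR), beside 5.16% of all tested miRNAs, and 0 of 4 called after MI at P1. The fibroblast sum was 4468 to 6202 CPM in MI P7 and 2128 to 3669 CPM in sham P7, and 10868 to 12713 CPM in MI P1 and 1615 to 12553 CPM in sham P1. For MI P7 the cardiomyocyte sum ranged from 153150 to 169681 CPM, below the 210790 to 324311 CPM of sham P7. MI P1 ranged from 88820 to 157867 CPM, where sham P1 ranged from 157079 to 254128 CPM. The lower P1 sum after MI came from miR-133a-3p, whose mean was 52986 CPM after MI against 147929 CPM after sham operation. There miR-208a-3p was slightly lower too (933 against 992 CPM). Higher means after MI at P1 were found for miR-1a-3p (55434 against 47403 CPM), miR-208b-3p (3384 against 2129 CPM) and miR-499-5p (1633 against 1517 CPM). With either code of sham P1 left out, 4 of 4 fibroblast miRNAs were higher in MI P7, where 12.8% and 12.2% of all tested miRNAs were higher without the code 1103 and the code 1078 libraries. MI P1 had 0 of 4 called without the code 1103 libraries. Without the code 1078 libraries 2 of 4 were higher, beside 35.7% of all tested miRNAs higher and 40.1% lower. In the difference of the MI effects 0 of 4 were called without the code 1103 libraries, and 2 were higher and 1 lower without the code 1078 libraries, beside 39.4% of all higher and 26.1% lower.

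Leukocyte miRNAs did not all point the same way. At 3 days, 0 of 8 passed after MI at P7, with a median log2 fold change of 0.84 against -0.01 for all. After MI at P1, 1 of 8 was higher, miR-142a-3p (2.71 ± 0.83, adjusted p of 0.0345), and 1 was lower, the lymphocyte miRNA miR-150-5p (-1.89 ± 0.43, adjusted p of 0.0230), by edgeR. Of all tested miRNAs, 1.35% were called as higher and 17% as lower there. DESeq2 and limma-voom also called 0 of 8 after MI at P7. With either code of sham P1 left out 4 of 8 were higher after MI at P7, beside 12.8% (without the code 1103) and 12.2% (without the code 1078) of all tested miRNAs. MI P1 had 0 of 8 called without the code 1103 libraries, and 5 higher and 2 lower without the code 1078 libraries, where 35.7% of all tested miRNAs were higher and 40.1% lower. In the difference of the MI effects 0 of 8 were called with all libraries or without the code 1103 libraries, and 1 was higher and 4 lower without the code 1078 libraries. In that last case 39.4% of all tested miRNAs were higher and 26.1% lower.

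Between the sham groups at 3 days 2 of 8 leukocyte miRNAs were higher in sham P7, miR-150-5p (1.23 ± 0.42, adjusted p of 0.0465) and miR-342-5p (1.32 ± 0.45, adjusted p of 0.0472), by edgeR. 2 were lower, miR-223-3p (-2.66 ± 0.85, adjusted p of 0.0389) and its other strand miR-223-5p, which was at 0 in every sham P7 library. Of all tested miRNAs, 3.81% were called as higher and 18.2% as lower there. Of the leukocyte list, 2 were higher and 3 lower without the code 1103 libraries, and 4 higher and 0 lower without the code 1078 libraries. Of all tested miRNAs, 31.7% were higher and 41.2% lower in the first case and 9.37% and 6.54% in the second.

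At 21 days 1 of 8 leukocyte miRNAs was higher in MI P7, miR-142a-3p (0.58 ± 0.19, adjusted p of 0.0392), and 1 was lower, miR-150-5p (-1.26 ± 0.30, adjusted p of 0.0124), by edgeR, with a median of -0.24. DESeq2 called 1 as higher and 2 as lower and limma-voom 1 in each direction, and edgeR called 13.2% of all miRNAs as higher and 8.86% as lower. MI P1 had 0 of 8 called. In the difference of the MI effects 0 of 8 were called by edgeR, DESeq2 called 2 and limma-voom 1 as lower, and edgeR with total count scaling called 2 as higher.

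The summed leukocyte level overlapped between MI and sham in each pair at both follow-ups. It was 5310 to 7313 CPM in MI P7 and 4671 to 9560 CPM in sham P7, and 5912 to 9104 CPM in MI P1 and 4584 to 6035 CPM in sham P1, at 3 days. At 21 days it was 2804 to 3749 CPM in MI P7 and 3358 to 3587 CPM in sham P7, and 2974 to 3698 CPM in MI P1 and 2955 to 3443 CPM in sham P1. miR-223-5p was at 0 in all sham P7 libraries at 3 days, and no other listed leukocyte miRNA was at 0 throughout a group.

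Per 100 CPM of the leukocyte list there were 0.978 to 2.06 CPM of miR-146b-5p in MI P7 and 0.0975 to 0.399 in sham P7, and 3.39 to 5.25 in MI P1 and 0.144 to 2.2 in sham P1, at 3 days. At 21 days there were 6.75 to 16.4 in MI P7 and 2.08 to 4.02 in sham P7, and 1.86 to 5.63 in MI P1 and 3.07 to 6.73 in sham P1. MI and sham did not overlap on this measure in the P7 groups at either follow-up or in the P1 groups at 3 days. By mean CPM the sum was led by miR-342-3p at 3 days, followed by miR-223-3p in MI P1 and by miR-150-5p in the other groups, and by miR-142a-5p and then miR-150-5p at 21 days, so it does not follow each kind of leukocyte.

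Other miRNAs known to be induced through Toll-like receptors or NF-kB moved unevenly. Of 8 listed, 6 were tested at 3 days. After MI at P7, 2 of 6 were higher, miR-21a-3p (4.34 ± 0.59, adjusted p of 0.000314) and miR-212-3p (2.52 ± 0.61, adjusted p of 0.0257), and the median log2 fold change was 1.91 against -0.01 for all. miR-132-3p, made from the same transcript as miR-212-3p, stood at 1.58 ± 0.46 (adjusted p of 0.0567), by edgeR. miR-155-5p, the miRNA of activated macrophages and lymphocytes, stood at -0.29 ± 0.46 (adjusted p of 0.841) and miR-9-5p at -1.34 ± 0.53 (adjusted p of 0.158). edgeR called 5.16% of all miRNAs as higher in this comparison. With either code of sham P1 left out, 4 of 6 were higher, beside 12.8% and 12.2% of all tested miRNAs. Limma-voom with title codes as blocks called 0 miRNAs here.

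After MI at P1, 0 of 6 passed at 3 days by edgeR, with a median of 0.92 against 0.03 for all; DESeq2 called 2 and limma-voom called 1 as higher. miR-21a-5p was nearest to the threshold at 2.49 ± 0.90 (SE) with an adjusted p of 0.0571, and 0 of 6 were called without the code 1103 and 4 of 6 higher without the code 1078 libraries, where 35.7% of all tested miRNAs were higher. miR-155-5p was at 0.73 ± 0.45 (SE) with an adjusted p of 0.270, by edgeR. In the difference of the MI effects 0 of 6 were called by edgeR, 1 by DESeq2 and 0 by limma-voom. Without the code 1103 libraries 1 was higher, beside 0.207% of all tested miRNAs. Without the code 1078 libraries 1 was higher and 2 lower, beside 39.4% and 26.1% of all. Between the sham groups 1 of 6 was lower in sham P7, miR-21a-3p at -1.73 ± 0.54 (SE) with an adjusted p of 0.0385 by edgeR. It called 18.2% of all miRNAs as lower there. Without the code 1103 libraries 2 of 6 were lower, beside 41.2% of all, and without the code 1078 libraries 2 were higher, beside 9.37% of all.

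At 21 days 7 of the 8 were tested, and after MI at P7 3 were higher: miR-21a-3p (2.16 ± 0.37, adjusted p of 0.00312), miR-147-3p (1.83 ± 0.52, adjusted p of 0.0246), which is induced in mouse macrophages by Toll-like receptor ligands, and miR-21a-5p (1.49 ± 0.32, adjusted p of 0.00844), by edgeR. DESeq2 called 3 as higher and 2 as lower, and limma-voom 2 as higher. Of all tested miRNAs, edgeR called 13.2% as higher in this comparison. The list's median was 0.07 against 0.03 for all. miR-155-5p was at -0.56 ± 0.20 (SE) with an adjusted p of 0.0636. miR-147-3p was low, at 0.635 to 2.96 CPM in MI P7 and 0.385 to 0.626 CPM in sham P7.

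After MI at P1 0 of 7 were called at 21 days by edgeR, DESeq2 or limma-voom. In the difference of the MI effects 3 of 7 were higher, miR-147-3p (2.87 ± 0.81), miR-21a-3p (2.09 ± 0.51) and miR-21a-5p (1.79 ± 0.44), and 1 was lower, miR-9-5p (-1.65 ± 0.45), by edgeR, while limma-voom called 1 in each direction. Of all tested miRNAs, edgeR called 7.86% as higher and 2.01% as lower in the difference. With the lane as a factor, 3 of 7 were still higher in MI P7 and 0 of 7 were called in the difference.

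**Figure D4:**
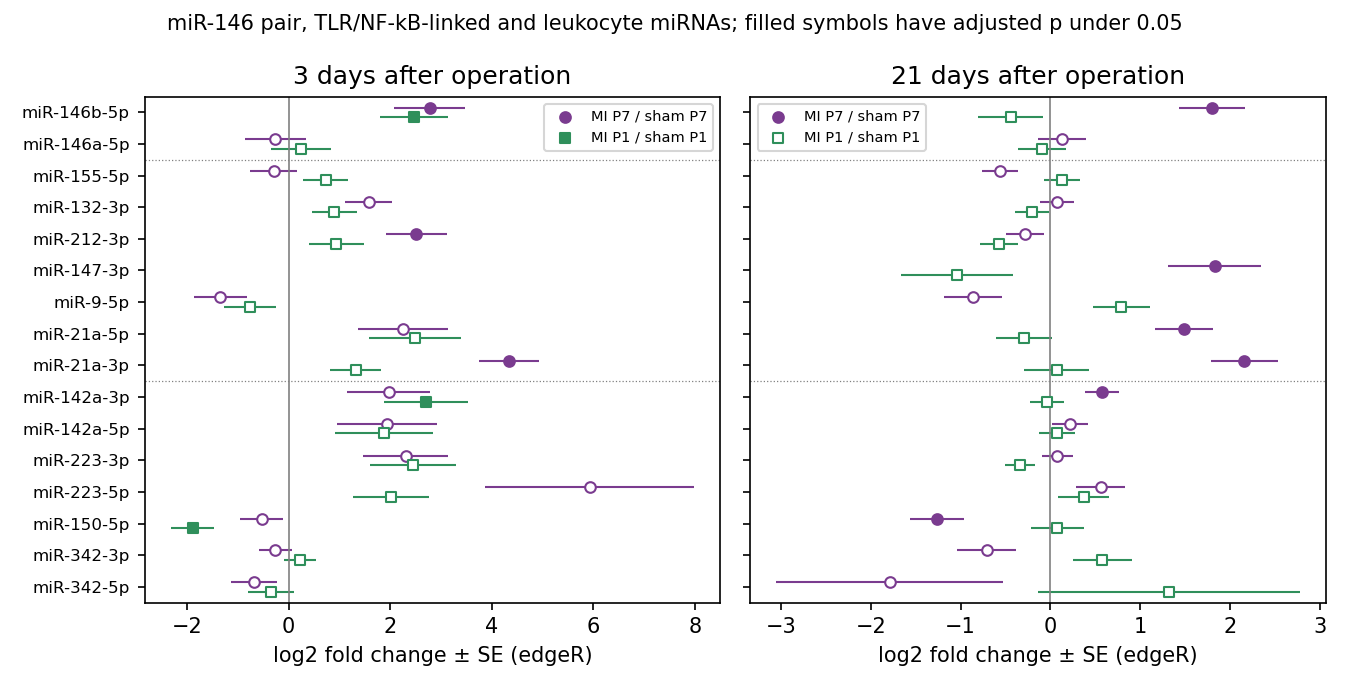
Log2 fold changes with SE from edgeR of the miR-146 pair (top), of miRNAs induced through Toll-like receptors or NF-kB (middle) and of leukocyte miRNAs (bottom), for MI P7 over sham P7 (circles) and MI P1 over sham P1 (squares), at 3 days (left) and 21 days (right); filled symbols have an adjusted p under 0.05. miR-155-5p belongs to the middle and the bottom list and is drawn once, and at 21 days miR-146b-5p (1.80), miR-21a-5p (1.49) and miR-21a-3p (2.16) were higher in MI P7 while miR-146a-5p (0.13) and miR-155-5p (-0.56) did not pass.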

How the data were processed

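The authors deposited whole-number counts per hairpin and mature miRNA for each library, with no normalization, and the highest count over hairpins was kept per mature name. Per the labels' protocols, 3-day libraries used Qiagen's QIAseq chemistry (NextSeq500 reads) and 21-day libraries Illumina's TruSeq chemistry (HiSeq2000 reads). Bowtie2 2.2.2, edgeR and GRCm38 are named, without role, per the submitters' processing notes. How reads were counted, against which annotation and with or without UMIs is not given in the sources used here. Follow-ups were fitted apart. In each, edgeR 4.0.16 (R 4.3.3) was fitted to its 4 groups with robust quasi-likelihood F tests, TMM scaling and filterByExpr at a minimum count of 10, leaving 446 and 598 miRNAs, 12 and 8 residual degrees of freedom and Benjamini-Hochberg adjusted p-values called under 0.05. The fits were tested on simulated data for MI P7 against sham P7. Of true log2 fold changes of 1 and 2 in size, 15.8% and 62.9% were called at 3 days and 61.6% and 94.9% at 21 days. A change that was not called, above all at 3 days, can therefore be real. Each SE is the absolute log2 fold change divided by the root of F. Ratios of the members were tested by exact permutation of libraries (scipy 1.17.1). After collapsing, totals were 0.858 to 8.90 M at 3 days and 14.9 to 21.5 M at 21 days. Alternatives were other scalings, filters and samples, DESeq2 1.42.0, limma 3.58.1 voom with and without title code as a block, lane and title number as factors, and single libraries left out; the lane 3 comparison was chosen after seeing the data. The members and the marker lists (cardiomyocyte, fibroblast, leukocyte, Toll-like receptor or NF-kB induced, endothelial, smooth muscle, erythroid, liver, skeletal muscle, epithelial and neural) were chosen with earlier results of these data known. By rule, the text names the members, their 3p strands, the 5 nearest miRNAs of each and, from the lists, those called and a few others in list order.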

Additional observations from a re-analysis of the deposited data

Results flagged for a closer look

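The level of miR-146b-5p in MI P7 replicate 1 at 3 days was 71.6 CPM, set apart from the other 3 libraries of its group (103 to 109 CPM): the gap to the nearest of them took 0.85 of the group's range. 16 groups were examined in this way, over the 4 groups of the 3-day follow-up, for the levels of both members and of miR-146b-3p and for the ratio, and chance alone sets a library apart in about 5 of 100 such groups. The effect of MI on miR-146b-5p at 21 days differed between operation days, by 2.24 on the log2 scale (P7 minus P1) with an adjusted p of 0.0178 by edgeR. miR-146b-5p was higher in 3 of 3 MI P7 libraries than in any sham P7 library, while MI P1 overlapped sham P1. Of the 598 tested miRNAs, 16.6% were higher without overlap in MI P7 than in sham P7. With the sequencing lane as a factor the difference was 2.29 with an adjusted p of 0.0624 by edgeR, and 0 miRNAs were called. All 3 sham P1 libraries were in lane 3 and 2 of 3 MI P1 libraries in lane 5, so lane and operation are partly mixed in the P1 groups.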

How the results depend on the processing

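For miR-146b-5p the direction after MI was the same under every alternative run at 3 days, at both operation days, and at 21 days in MI P7 and in the difference of the effects, but the calls at 3 days were not. After MI at P7 at 3 days the log2 fold change was 2.63 with DESeq2 size factors, 2.72 with no filter and 2.59 with limma-voom and the title code as a block, and lost the call in each; without single libraries it was 2.59 to 2.99. After MI at P1 it lost the call at 2.57 with no filter, 2.67 with the compared groups alone, 3.16 with the title-code block and 1.55 without the code 1103 libraries; without single libraries it was 2.00 to 3.21. The difference of the effects changed sign to -0.46 with limma-voom, -0.57 with the title-code block and -2.22 without the code 1078 libraries, and lay between -0.44 and 0.75 without single libraries, the lowest without sham P1 replicate 2. Sham P7 over sham P1 lost the call at -2.03 with DESeq2 size factors, -1.77 with a filter of 10 CPM, -1.30 with limma-voom, -1.61 with the compared groups alone and -1.20 with the title-code block, changed sign to 0.64 without the code 1078 libraries, and was -2.45 to -1.32 without single libraries. At 21 days the difference of the effects lost the call with lane as a factor (2.29). For miR-146a-5p at 3 days, MI P7 over sham P7 changed sign to 0.22 with total count scaling. MI P1 over sham P1 was -0.69 without the code 1103 and 2.47 without the code 1078 libraries (-0.25 to 0.78 without single libraries), the difference 0.41 and -2.76, and sham P7 over sham P1 -1.88 and 1.32 (-1.50 to -0.60). At 21 days its MI P1 value was 0.016 with the replicate block (-0.27 to 0.089 without single libraries), its MI P7 value -0.059 to 0.44 without single libraries, and its sham value -0.16 with total count scaling and -0.004 with a filter of 10 CPM (-0.21 to 0.23). The ratio after MI at P1 (2.25) and between the sham groups (-0.93) at 3 days lost the call without the code 1103 libraries, and without single libraries ratios were 2.22 to 2.42 after MI at P1, 2.90 to 3.24 after MI at P7 and -1.04 to -0.70 between shams. Fewer libraries make up the alternatives that leave some out; for the others the cause was not tested. Total count scaling moved the median log2 fold change of all miRNAs to 0.47 after MI at P7 and 0.33 after MI at P1 at 3 days. Numbers in the 21-day titles share only a number: deviations of same-numbered libraries correlated at -0.309 to 0.328, 5 of 11 libraries correlated best with their own number, and with the number as a replicate block miR-146b-5p stood at 1.77 after MI at P7 (adjusted p of 0.00862 by edgeR) and 1.90 in the difference (adjusted p of 0.0376), with 85 and 33 calls against 132 and 59. Over all alternatives calls ranged at 3 days from 0 to 93 after MI at P7 (25), 0 to 348 after MI at P1 (82), 0 to 301 in the difference (0) and 0 to 352 between shams (98), and at 21 days from 29 to 190 (132), 2 to 12 (3), 0 to 137 (59) and 0 to 29 (0). Depth limits miR-146b-5p at 3 days in the sham P7 libraries, with 7 to 34 counts, and in the code 1103 libraries of sham P1, with 9 and 18 counts. It also limits both 3p strands.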

Other observations

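The remaining marker lists are given as the miRNAs called by edgeR. At 3 days, MI P7 had 1 of 2 skeletal muscle miRNAs higher than sham P7, miR-206-3p (3.66, adjusted p of 0.0047), and 0 called among 5 cardiomyocyte, 2 endothelial, 2 smooth muscle, 4 erythroid, 1 liver, 4 epithelial and 1 neural miRNA tested. With either code of sham P1 left out, miR-206-3p was still called after MI at P7 (3.64 and 3.63). miR-133a-3p and miR-486a-5p were then called as lower, at -0.71 (adjusted p of 0.0207) and -1.12 (adjusted p of 0.0226) without the code 1103 and -0.72 (adjusted p of 0.0182) and -1.14 (adjusted p of 0.0254) without the code 1078 libraries, by edgeR.

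MI P1 at 3 days had 4 calls against sham P1. miR-206-3p was higher at 2.21 (adjusted p of 0.023), and 1.78 (adjusted p of 0.226) without the code 1103 and 2.71 (adjusted p of 0.00159) without the code 1078 libraries. Among those lower, miR-486a-5p of red blood cells was at -2.47, and -0.67 and -3.46 without those libraries. miR-200c-3p of epithelium was at -1.93, and -1.69 and -2.40. miR-133a-3p, a miRNA of heart and skeletal muscle, was at -1.48, and -0.21 and -2.37. The erythroid and cardiomyocyte lists did not fall with them, with medians of 0.27 over 4 and 0.11 over 5 miRNAs. Without the code 1078 libraries the rest of the erythroid list was called as higher by edgeR, miR-451a (4.05), miR-144-3p (4.98) and miR-144-5p (5.42). So was the rest of the cardiomyocyte list, miR-1a-3p (4.23), miR-208a-3p (4.18), miR-208b-3p (2.74) and miR-499-5p (2.67). In that fit 35.7% of all tested miRNAs were higher and 40.1% lower. Between the sham groups, miR-206-3p (-2.91) and the smooth muscle miRNA miR-143-3p (-1.88) were lower and miR-486a-5p (1.81) was higher in sham P7, beside 18.2% of all tested miRNAs lower and 3.81% higher. Without the code 1078 libraries none of these passed, at -2.23 (adjusted p of 0.0802) for miR-206-3p, 0.45 (adjusted p of 0.362) for miR-143-3p and 1.07 (adjusted p of 0.109) for miR-486a-5p by edgeR. Without the code 1103 libraries all passed, at -3.19, -2.64 and 3.82 in the same order, where 72.9% of all were called. Others of these lists did not follow with all libraries: miR-145a-5p of smooth muscle was at -0.16 and miR-133b-3p of skeletal muscle at 0.48, neither called. The median of the 4 erythroid miRNAs was -0.50. The liver miRNA miR-122-5p, at 1641 CPM in an MI P1 library, was not called after MI at P1 (2.65 ± 1.32, adjusted p of 0.153 by edgeR).

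At 21 days, MI P7 had miR-200a-3p (1.91, adjusted p of 0.00312) and miR-200b-3p (1.57, adjusted p of 0.0122) of the epithelial list higher than sham P7, and miR-126a-3p of endothelium (-0.78, adjusted p of 0.0195) and miR-133a-3p (-1.01, adjusted p of 0.00844) lower, by edgeR. Of all tested miRNAs 13.2% were called as higher and 8.86% as lower there. The 2 epithelial miRNAs called were low, at 0.470 to 0.879 and 0.641 to 1.32 CPM in sham P7. Of the other 3 listed, miR-200c-3p (2.78 against 3.40 CPM) and miR-141-3p (24.8 against 28.4 CPM) had lower means in MI P7 than in sham P7. miR-205-5p had a higher mean (0.446 against 0.404 CPM). miR-200a-3p (2.42), miR-200b-3p (2.37) and miR-133a-3p (-1.09) were also called in the difference of the MI effects, beside 7.86% of all as higher and 2.01% as lower. With the lane as a factor 0 of 598 miRNAs were called in that difference. MI P1 against sham P1 and sham P7 against sham P1 had 0 calls in these lists.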
